A study of Mus musculus with 42 samples.

Results

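The probes described here read the major histocompatibility complex (MHC) of the mouse, which carries the H2 genes, together with the genes that load and control its molecules. They are every probe whose gene name begins with H2-, and the probes of B2m, Cd74, Ciita, Tap1, Tap2 and Tapbp. The rule used names alone and gave 72 probes for 45 gene symbols, of 41174 probes and 27398 gene names on the array. Each probe was kept on its own, since the mouse strains compared may carry different forms of these genes.

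Total RNA of aorta and skeletal muscle was measured on 42 one-colour arrays, 1 per sample, with 3 arrays for each of 7 groups in each tissue. The healthy group (G) was C57 mice, and the other 6 groups were KK/Ay mice, an obese strain that carries the Ay allele of the agouti gene and becomes diabetic. All mice were adult males. The study set up the groups to compare SHENQI compound, a herbal mixture, with rosiglitazone in diabetic disease of the large vessels. The diabetic group (A) was KK/Ay mice without further induction, and the diabetic macroangiopathy group (C) was KK/Ay mice on a high-fat diet whose drinking water held L-NAME, which blocks nitric oxide synthase. The SHENQI group (B), the yangyinyiqi group (D), the huoxue group (E) and the rosiglitazone group (F) had the same diet and L-NAME and were treated by gavage, D and E each with a part of the SHENQI recipe. Groups A, C and G received saline. Healthy mice thus differ from all others in strain as well as in diabetes, and these cannot be told apart here. A probe that pairs less well with the KK/Ay sequence of a gene cannot be told apart from a lower level of its RNA either. Groups B to F differ from healthy mice in diet and L-NAME as well. Slide 1 of the 11 array slides held healthy aorta arrays 1 and 3, diabetic aorta array 1 and SHENQI aorta array 1. Slide 3 held healthy muscle arrays 1 and 2 and rosiglitazone muscle arrays 2 and 3. Both were scanned on other days than the other slides, so slide and scan day are partly confounded with strain. The labels do not say whether aorta and muscle arrays of 1 number come from the same mouse, and p-values measure the spread between these arrays.

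MHC class I molecules sit on nearly every nucleated cell and show peptides from inside the cell to CD8 T cells. Their heavy chains are the classical H2-K and H2-D and the many Q, T and M genes, and all of them need the light chain beta-2-microglobulin (B2m) and, in most cases, peptides pumped in by the Tap1 and Tap2 transporter and loaded with the help of tapasin (Tapbp). Class II molecules are made mainly by B cells, dendritic cells and macrophages, pair an alpha with a beta chain (H2-Aa with H2-Ab1, H2-Ea with H2-Eb1), and show peptides taken up from outside to CD4 T cells. Their invariant chain is Cd74, H2-DM exchanges peptides, H2-DO restrains H2-DM, and Ciita switches the whole class II set on. Interferon gamma raises both sets.

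Of the 72 probes, 9 read K and D genes (4 symbols), where H2-K1 and H2-D1 are the classical ones. Another 34 read the Q, T and M genes (23) and 7 the light chain and loading genes (4). The class II A and E chains (5) had 10 probes, the DM and DO chains (5) 8, and Cd74 and Ciita 2. The remaining 2 read H2-Ke2 and H2-Ke6, which are named for their place in the region and code for a prefoldin subunit and a hydroxysteroid dehydrogenase. Coordinates were given for 68 probes, and 63 of them lie on chromosome 17.

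Probes of this family share much sequence, and 14 pairs of members overlapped by 25 bases or more. The pair below is shown because probes named for 2 genes read the same stretch. Each probe is 60 bases long, is written 5′ to 3′ as on the array, and the capitals mark the 35 bases that both hold. The first lies at chr17:35610210-35610269 of mm9, plus strand.
H2-Q10 A_51_P496997: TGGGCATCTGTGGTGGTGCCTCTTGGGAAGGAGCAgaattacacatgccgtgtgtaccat
H2-Q5 A_51_P400752: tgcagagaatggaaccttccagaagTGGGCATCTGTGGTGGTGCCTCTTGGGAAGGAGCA
The next pair shows how small the differences between a classical and a Q gene are, with 47 of 50 overlapping bases alike and the others in capitals. H2-D1 A_52_P313279 lies at chr17:35403132-35403191 and H2-Q2 A_51_P219789 at chr17:35482113-35482172, both on the plus strand of mm9.
H2-D1 A_52_P313279: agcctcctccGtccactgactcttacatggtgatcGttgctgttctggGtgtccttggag
H2-Q2 A_51_P219789: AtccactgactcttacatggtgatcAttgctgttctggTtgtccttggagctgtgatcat
For H2-Ab1 the array carries probes to different versions of 1 stretch, alike in 29 of 31 overlapping bases, with the others in capitals. The first lies at chr17:34401723-34401782, plus strand.
H2-Ab1 A_51_P215242: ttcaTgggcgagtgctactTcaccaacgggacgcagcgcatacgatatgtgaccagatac
H2-Ab1 A_52_P570717: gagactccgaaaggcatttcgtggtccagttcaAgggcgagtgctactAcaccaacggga
The last set holds the probe with the smallest p in KK/Ay against healthy mice, H2-T22 at chr17:36178425-36178484 (minus strand), and H2-Ea-ps at chr17:34481469-34481528 (minus strand), the probe for the E alpha chain, which C57 mice are known not to make.
H2-T22 A_52_P197826: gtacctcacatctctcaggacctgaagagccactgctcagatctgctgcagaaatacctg
H2-Ea-ps A_51_P222741: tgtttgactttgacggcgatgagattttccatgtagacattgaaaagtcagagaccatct

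Promoters of 33 member symbols were found in the RefSeq table (GRCm38.p6), and 4 letter patterns known from class I and class II promoters were searched on both strands in windows from 250 bases before to 50 after each start. GGGATTCCC, the core of the class I enhancer, was in 0.353% of all 32851 windows and in those of H2-K1, H2-D1 and H2-Q7. GAAANNGAA, an interferon response pattern, was in 8.56% of all windows and in 3 of 37 member windows, those of B2m, H2-T22 and H2-T23. The share of member windows was thus about that of all windows. The class II promoter pattern TGACGTCA was in 1.79% of all windows and in 1 of 37 member windows, that of H2-Aa. The Y box ATTGG was in 37.4% of all windows and 32 of 37 member windows. The 250 bases before the start are shown for 4 genes, with GGGATTCCC in capitals in H2-K1 and H2-D1, GAAANNGAA in B2m, and TGACGTCA and ATTGG in H2-Aa. The ATTGG matches of the other 3 are left in lower case. They are H2-K1 (chr17:34000348-34000597, minus strand), H2-D1 (chr17:35262844-35263093, plus), B2m (chr2:122147437-122147686, plus) and H2-Aa (chr17:34287824-34288073, minus).
H2-K1 promoter: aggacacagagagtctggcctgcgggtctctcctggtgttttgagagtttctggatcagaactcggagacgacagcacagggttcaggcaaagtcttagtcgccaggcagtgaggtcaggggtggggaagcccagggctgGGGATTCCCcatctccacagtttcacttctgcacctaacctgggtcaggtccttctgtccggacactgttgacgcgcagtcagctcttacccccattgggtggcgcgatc
H2-D1 promoter: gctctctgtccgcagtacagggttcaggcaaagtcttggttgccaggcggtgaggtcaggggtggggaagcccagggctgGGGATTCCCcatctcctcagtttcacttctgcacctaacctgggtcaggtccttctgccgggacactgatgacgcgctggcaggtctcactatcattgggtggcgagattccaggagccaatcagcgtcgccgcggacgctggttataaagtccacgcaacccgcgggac
B2m promoter: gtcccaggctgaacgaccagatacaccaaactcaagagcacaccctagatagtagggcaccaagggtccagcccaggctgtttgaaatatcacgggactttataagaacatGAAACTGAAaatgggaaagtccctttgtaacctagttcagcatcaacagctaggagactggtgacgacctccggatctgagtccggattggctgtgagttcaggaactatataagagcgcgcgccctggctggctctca
H2-Aa promoter: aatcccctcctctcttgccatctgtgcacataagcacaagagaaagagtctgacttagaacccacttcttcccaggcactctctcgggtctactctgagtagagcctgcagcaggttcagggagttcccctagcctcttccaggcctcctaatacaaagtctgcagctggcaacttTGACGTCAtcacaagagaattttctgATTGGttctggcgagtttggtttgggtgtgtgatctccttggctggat
These 4 stand for the heavy chain, light chain and class II genes followed in the values. A match is a description of letters and was not tested as a site.

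Of the 72 probes, 39 were well above background on all 42 arrays, 28 on some and 5 on none, and none was saturated. The 5 that were never well above background read H2-Ea-ps, H2-M1, H2-M10.3, H2-M10.5 and H2-M11. H2-Ea-ps lay between 2.27 and 5.15 on the log2 intensity scale over all arrays, C57 and KK/Ay alike, so no difference can be read for the E alpha chain. Across all probes, 20200 to 30274 per array were well above background.

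Before the comparisons, some aorta arrays stood apart in blood cell markers. Cd79b, part of the B cell receptor, was 14.91, 8.08 and 11.01 in log2 intensity on the 3 healthy aorta arrays and between 7.71 and 14.50 on the 18 KK/Ay aorta arrays. It passed 12 on 6 aorta arrays, which were healthy 1, macroangiopathy 3, SHENQI 2, yangyinyiqi 2, huoxue 2 and rosiglitazone 1. On muscle arrays it was 11.19, 7.96 and 6.82 in healthy mice, 9.65 on SHENQI array 3 and at most 7.31 on the others. Of the 9 B cell probes, 6 to 9 were well above background on aorta arrays and 1 to 7 on muscle arrays. Their summed level, the log2 of summed intensities, ran from 9.74 to 15.48 in healthy aorta and from 9.52 to 15.31 in KK/Ay aorta. The summed level of the smooth muscle list was 14.76, 18.45 and 17.45 in healthy aorta, 17.14 to 19.39 in KK/Ay aorta and 15.09 to 16.03 on muscle arrays. The array labelled healthy aorta 1 thus lay below every muscle array for these markers, against its label, and was also the highest in Cd79b. Without it, 27 members were called in KK/Ay against healthy mice, 18 in diabetic and 4 in macroangiopathy against healthy mice, 52 between tissues and 2 for the tissue difference. The skeletal muscle list lay between 19.77 and 20.30 on all muscle arrays, and between 11.53 and 19.15 on aorta arrays. In bulk tissue, fewer cells of a type and less RNA per cell cannot be told apart.

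In aorta the class II genes were highest on these arrays. In each of the 7 aorta groups the array with the most Cd79b was also the highest of its 3 for Cd74, Ciita, both probes of H2-Aa, all 4 of H2-Ab1, H2-Eb1, H2-DMa and both of H2-Oa. Cd74, the invariant chain, was 15.17, 12.37 and 13.27 in healthy aorta, and in the huoxue group it was 12.85, 15.36 and 10.36. Among members tested in KK/Ay against healthy mice, 14 of 15 class II probes but 11 of 38 class I probes were highest on that array in all 7 aorta groups. Both H2-D1 probes, Tap1 and H2-Q8 were, while the H2-T22 probes were in 4, 4 and 3 groups, Tap2 in 3, and H2-Q10 A_51_P230267 and A_51_P230269 in 1. In muscle no member was in all 7 groups, with a median of 4 groups for class II and 3 for class I probes. The 6 aorta arrays with Cd79b over 12 were also the highest of their sets in other cell lists. Their summed macrophage level was 16.47 to 17.55 and their summed T cell level 11.49 to 14.03. The dendritic cell level was highest on them too, except on rosiglitazone array 1. The parts of B cell, T cell, macrophage and dendritic cell content in the differences given next were not tested. Without the 6 arrays, the counts of called members given next were 42 in place of 28 for KK/Ay against healthy mice, 18 in place of 19 for diabetic, 15 in place of 11 for macroangiopathy and 52 in place of 49 between tissues.

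**Figure D1:**
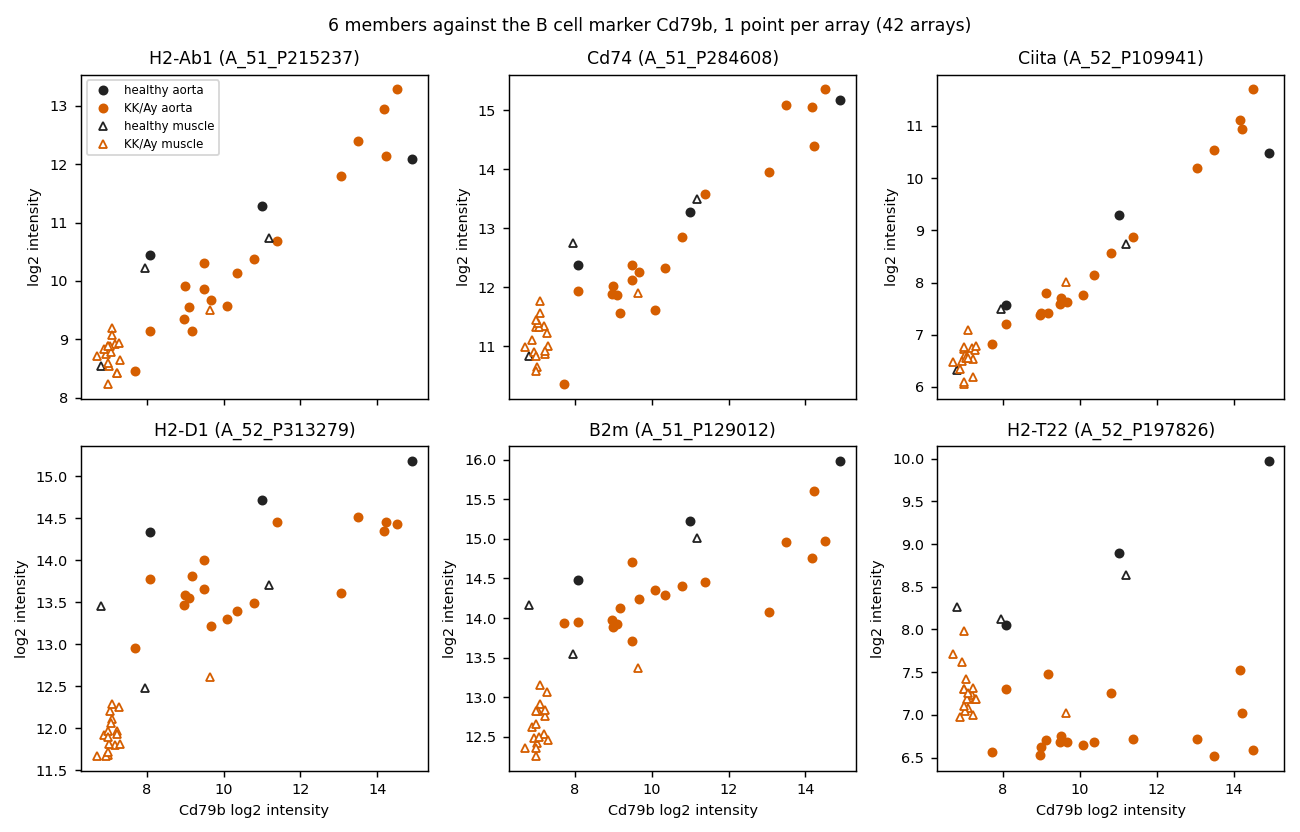
Log2 intensity of H2-Ab1, Cd74, Ciita, H2-D1, B2m and H2-T22 (y axes) against that of Cd79b (x axis), 1 point per array, with filled circles for aorta, open triangles for muscle, black for healthy and orange for KK/Ay. Cd74 climbs with Cd79b up to 15.36, while H2-T22 A_52_P197826 stays at 6.52 to 7.53 in KK/Ay aorta at all levels of Cd79b.

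The spread within sets of 3 arrays followed the same classes. The median standard deviation over the 7 aorta sets was 1.56 for class II A and E probes, 1.39 for DM and DO, 0.67 for K and D and 0.62 for Q, T and M, against 0.31 over all probes tested. In muscle these values were 0.56, 0.50, 0.43 and 0.36, against 0.21 over all probes. Class II differences between groups were thus measured with a larger error than class I differences, most of all in aorta.

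**Figure D2:**
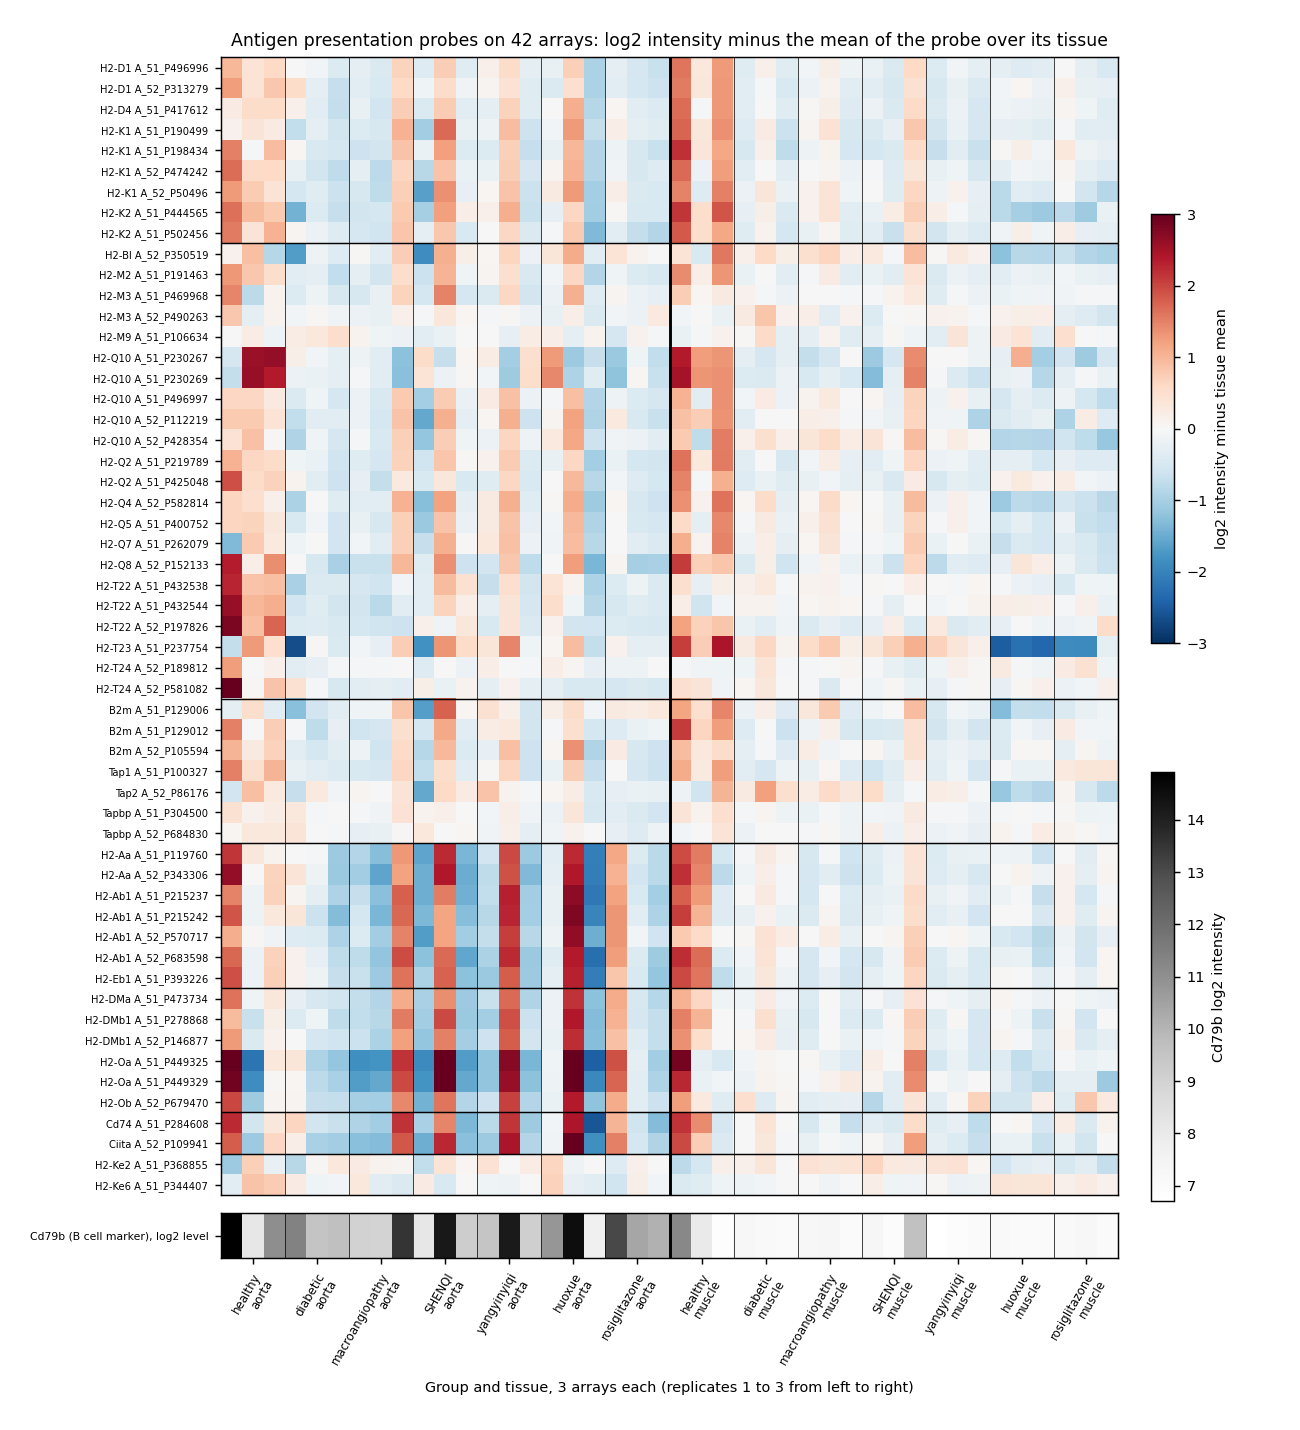
Each row is 1 of the 55 members tested and each column 1 of 42 arrays, with colour for the log2 intensity minus the mean of the probe over its tissue (red higher, blue lower) and the Cd79b log2 intensity in grey underneath. Rows of class II genes are red on the 6 aorta arrays with Cd79b over 12, and class I rows are red on most healthy arrays of both tissues.

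KK/Ay mice had less RNA signal of class I genes than healthy C57 mice. In the fit of all 42 arrays, the mean of the 6 KK/Ay groups was lower than healthy in 28 of 55 members tested, for 16 genes, and higher in 0, at an adjusted p below 0.05. Over all 29144 probes tested, 27.0% were called and 11.9% were called lower. The log2 difference was negative in 53 of the 55 members, with a median of -0.86 against 0.03 over all probes. All 9 K and D probes fell, by 0.82 to 1.54, as did 15 of 22 Q, T and M probes and 4 of 7 light chain and loading probes. None of 7 class II A and E probes, 6 DM and DO probes, or Cd74 and Ciita was called, although the A and E median was -1.03.

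Among the K and D genes, H2-D1 A_52_P313279 was 15.18, 14.34 and 14.72 in healthy aorta. It ran from 12.96 to 14.52, with a median of 13.64, in KK/Ay aorta. In muscle it was 13.70, 12.48 and 13.45 in healthy mice and 11.67 to 12.61 in KK/Ay mice, with a median of 11.92. All but the lowest healthy array lay above every KK/Ay array in both tissues. It fell by 1.11 (SE 0.18, adjusted p = 1.6e-05), which is 2.15-fold lower, and the second probe, A_51_P496996, fell by 1.02. H2-K1 A_51_P198434 was 15.95, 14.40 and 15.37 in healthy aorta and 13.56 to 15.67 (median 14.02) in KK/Ay aorta. It was 15.04, 13.22 and 14.01 in healthy muscle and 12.10 to 13.42 (median 12.65) in KK/Ay muscle, so the lower healthy arrays overlapped with the KK/Ay arrays. It fell by 1.19, and the other H2-K1 probes fell by 0.82, 1.10 and 0.98. H2-K2, which lies next to H2-K1 and is a non-coding transcript in RefSeq, fell by 1.54 and 1.26 on its probes. H2-D4 fell by 0.83. Neither is a classical gene. H2-K2 A_51_P444565 is alike in 45 of 50 bases with the H2-Q2 probe shown above, so these readings are not independent.

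**Figure D3:**
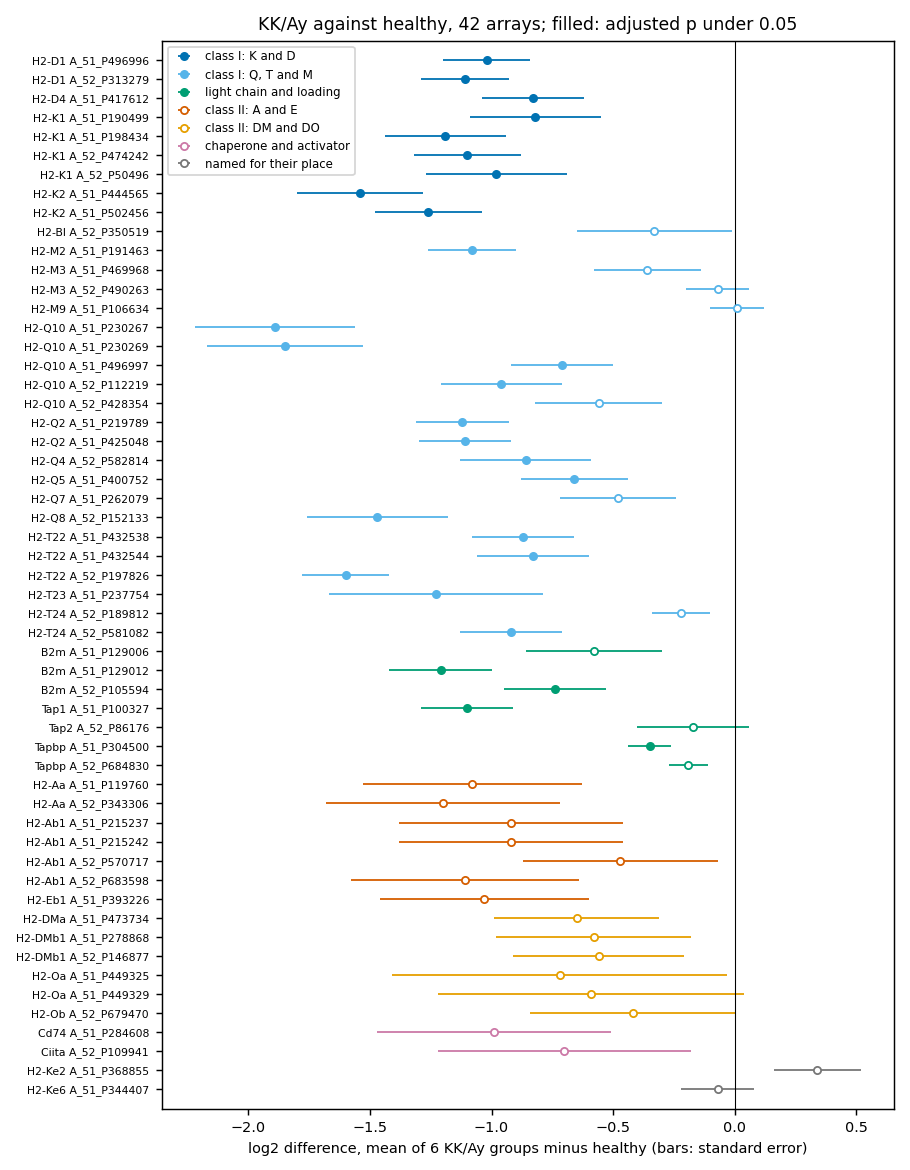
Log2 difference of the mean of the 6 KK/Ay groups minus healthy (x axis) for each of the 55 members tested (y axis), with bars of 1 standard error and filled points for an adjusted p below 0.05. All K and D points are filled and lie between -1.54 and -0.82, while the class II points reach -1.20 with wider bars and are open.

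Among the Q, T and M genes, H2-T22, a nonclassical molecule seen by some gamma delta T cells, had the smallest p. Its probe A_52_P197826 was 9.97, 8.05 and 8.89 in healthy aorta and 6.52 to 7.53 in KK/Ay aorta, with a median of 6.69. On muscle arrays it was 8.64, 8.12 and 8.26 in healthy mice and 6.98 to 7.98 in KK/Ay mice, with a median of 7.21. No KK/Ay array reached a healthy array in either tissue. It fell by 1.6 (SE 0.18, adjusted p = 9.19e-09), which is 3.04-fold lower. Its other probes, A_51_P432538 and A_51_P432544, fell by 0.87 and 0.83 over both tissues and behaved differently in the tissues, as given later.

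H2-Q10 codes for a class I molecule that the liver is known to secrete, and its 5 probes did not move alike. A_51_P230267 fell by 1.89 (SE 0.33, adjusted p = 3.59e-05) and A_51_P230269 by 1.85, while A_52_P112219 fell by 0.96 and A_51_P496997 by 0.71. The fifth, A_52_P428354, had a difference of -0.56 (adjusted p = 0.107). A_51_P496997 holds the 35 bases that also stand in the H2-Q5 probe, and H2-Q5 fell by 0.66. A_51_P230269 was 8.90, 12.25 and 12.01 in healthy aorta and 8.37 to 11.06 (median 9.44) in KK/Ay aorta. In muscle it was 9.02, 7.86 and 7.90 in healthy mice and 5.22 to 8.02 (median 6.23) in KK/Ay mice, where 6 of 18 arrays were well above background, as were 2 for A_51_P230267 and 1 for A_52_P112219. Healthy aorta array 1, the array highest in Cd79b, was the lowest healthy aorta array for this probe, the reverse of H2-D1. In muscle, where the probe was not well above background on any diabetic array, healthy mice were at least 4.23-fold higher than diabetic mice. That bound sets the healthy mean against the higher of the probe and the faintest signal well above background on each diabetic array.

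**Figure D4:**
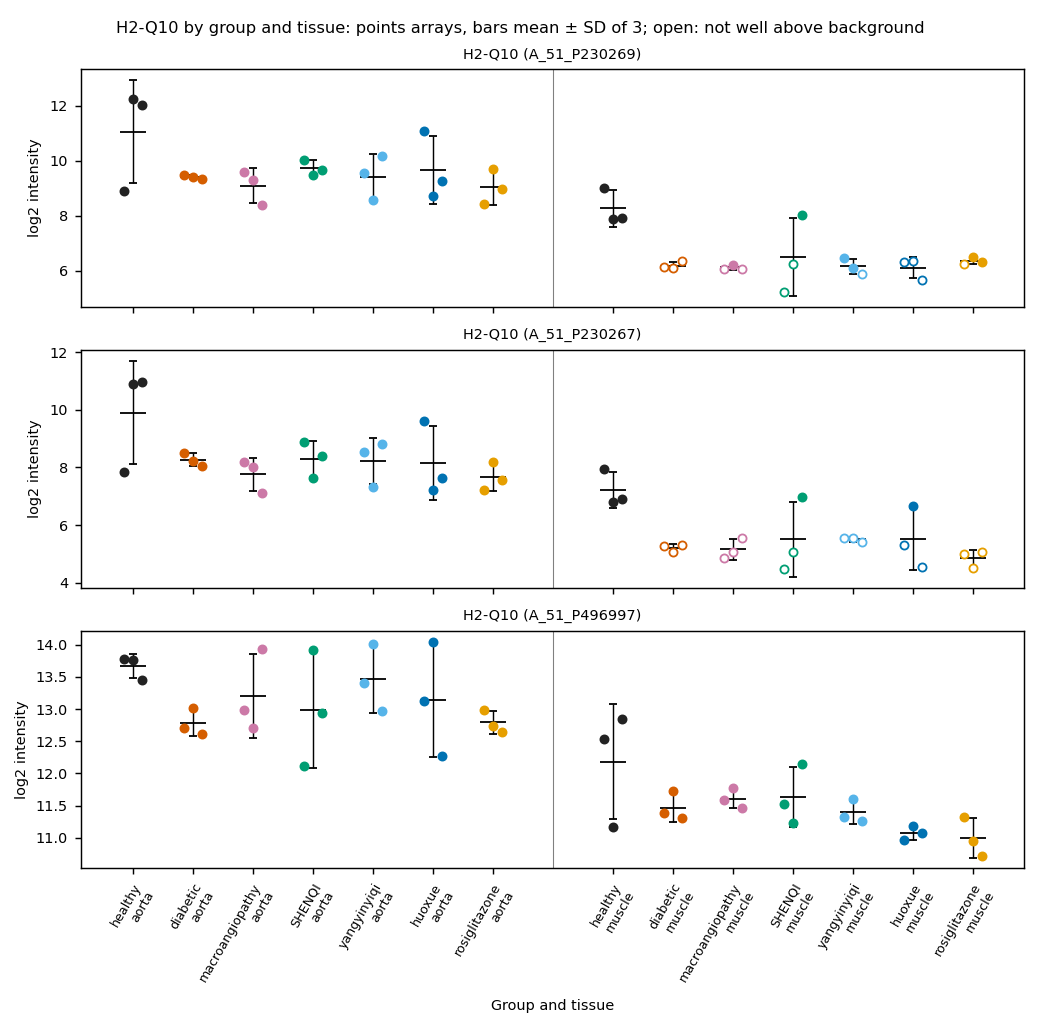
Log2 intensity of 3 H2-Q10 probes by group and tissue (x axis), with points for arrays, bars for mean ± SD of 3 and open points for arrays not well above background. For A_51_P230269 the 3 healthy muscle arrays lie at 7.86 to 9.02 and the KK/Ay muscle arrays at 5.22 to 8.02, while A_51_P496997, which shares 35 bases with the H2-Q5 probe, shows a smaller gap.

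Of the other Q, T and M genes, H2-Q8 fell by 1.47, H2-T23, the Qa-1 molecule that NK cell receptors read, by 1.23 (adjusted p = 0.0342), H2-Q2 by 1.12 and 1.11, H2-M2 by 1.08 and H2-Q4 by 0.86. The H2-T23 mean in muscle was 11.75 in healthy mice and 10.33 to 10.71 in groups A to D. It was 7.64 in huoxue and 8.64 in rosiglitazone muscle, where slide and group cannot be told apart. These 2 sets enlarge the H2-T23 difference. In aorta its mean was 12.21 in healthy and 11.80 in KK/Ay mice. H2-Q8 was 12.57, 10.40 and 11.60 in healthy aorta and 8.85 to 11.58 (median 9.68) in KK/Ay aorta. On muscle arrays it was 10.73, 9.36 and 9.48 in healthy mice and 7.86 to 9.29 in KK/Ay mice, with no overlap. H2-T24 fell by 0.92 on A_52_P581082 and differed by -0.22 on A_52_P189812 (adjusted p = 0.18). H2-Q7, part of the Qa-2 family, differed by -0.48 (adjusted p = 0.147), and H2-M9 by 0.01.

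The light chain was called lower on B2m A_51_P129012 and A_52_P105594 but not on A_51_P129006. B2m A_51_P129012 was 15.98, 14.48 and 15.22 in healthy aorta and 13.71 to 15.61 (median 14.27) in KK/Ay aorta. In muscle it was 15.01, 13.55 and 14.16 in healthy mice and 12.26 to 13.37 (median 12.64) in KK/Ay mice. The groups overlapped in aorta and did not in muscle. It fell by 1.21 (SE 0.21, adjusted p = 3.29e-05), A_52_P105594 fell by 0.74, and A_51_P129006 differed by -0.58 (adjusted p = 0.126). The mean of A_51_P129006 was 12.37 in healthy and 12.41 in KK/Ay aorta, and 11.74 and 10.53 in muscle. B2m lies on chromosome 2, outside the MHC.

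Of the loading genes, Tap1 was 8.27, 7.24 and 7.76 in healthy aorta and 6.01 to 7.50 (median 6.42) in KK/Ay aorta. On muscle arrays it was 6.91, 6.07 and 7.05 in healthy mice and 5.20 to 6.16 (median 5.59) in KK/Ay mice. The lowest healthy array overlapped with KK/Ay arrays in each tissue. In muscle Tap1 was well above background on 1 of 18 KK/Ay arrays, so the KK/Ay muscle values lie mostly at background and the fitted difference is not an exact size. Tap1 fell by 1.10 (SE 0.19, adjusted p = 2.93e-05), whereas Tap2, the other subunit of the transporter, differed by -0.17 (adjusted p = 0.629). Whether Tap1 and Tap2 differ from each other in this was not tested. Tapbp fell by 0.35 on A_51_P304500 (adjusted p = 0.00383) and differed by -0.19 on A_52_P684830 (adjusted p = 0.0667).

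The class II genes had differences of like size and larger errors. H2-Aa differed by -1.08 and -1.20 (adjusted p = 0.0696 and 0.057), H2-Ab1 by -0.92, -0.92, -0.47 and -1.11, and H2-Eb1 by -1.03 (adjusted p = 0.0723). H2-Ab1 A_52_P683598 was 13.97, 12.06 and 12.92 in healthy aorta and 9.98 to 14.61 (median 11.65) in KK/Ay aorta, so the KK/Ay arrays spanned the healthy ones. In muscle it was 12.56, 12.02 and 9.95 in healthy mice and 9.58 to 11.12 (median 10.18) in KK/Ay mice, with the third healthy array inside the KK/Ay range. Cd74 differed by -0.99 (adjusted p = 0.127) and Ciita by -0.70 (adjusted p = 0.331). The genes named for their place, H2-Ke2 (0.34) and H2-Ke6 (-0.07), were not called.

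Without the 6 aorta arrays high in Cd79b, 42 members were called, all lower, 27 of them among the 28, and 22.2% of all probes were called. All 7 class II A and E probes then passed, and Cd74 differed by -1.03 (adjusted p = 0.009) and Ciita by -0.83 (adjusted p = 0.0282). Muscle arrays alone gave 38 members lower and 2 higher (34.9% of all probes called), with all 9 K and D probes, 7 of 7 class II A and E probes, Cd74 (-1.19, adjusted p = 0.012) and Ciita (-0.89, adjusted p = 0.0412) lower. The 2 higher were H2-Ke2 by 0.45 and H2-Ke6 by 0.36. Aorta arrays alone gave 9 lower (14.2% of all probes called), namely the 3 H2-T22 probes, H2-T24 A_52_P581082, Tap1, H2-Q2 A_51_P425048, H2-Q10 A_51_P230267, H2-D1 A_52_P313279 and H2-M2. The class II call thus depended on which arrays were used.

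In aorta 2 of the 55 members, both H2-T22 probes A_51_P432544 and A_52_P197826, lay lower on all 18 KK/Ay arrays than on any healthy array, and 2.58% of all probes did. In muscle 5 members did, which were B2m A_51_P129012, H2-K2 A_51_P502456, H2-Q10 A_52_P112219, H2-Q8 and H2-T22 A_52_P197826, against 2.91% of all probes. Of these, H2-Q10 A_52_P112219 was well above background on 1 of 18 KK/Ay and 2 of 3 healthy muscle arrays. With the 11 array slides as a fixed block, 24 members were called (10.1% of all probes), 22 of them among the 28. Within the slides that hold healthy and KK/Ay arrays of 1 tissue, 28 of the 28 called members were lower on slide 1 (aorta), 23 on slide 2 (aorta) and 27 on slide 3 (muscle), with medians of -1.42, -0.22 and -1.14. The 28 were called lower in a fit that holds these same arrays, so the counts are no separate support. Slide 1 holds healthy aorta array 1.

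The comparisons of single groups with healthy mice use the same healthy arrays, so they are no separate support. In C vs G the groups also differ in diet and L-NAME, which cannot be told apart there from strain and diabetes. In diabetic mice (A vs G), 19 of 54 members were called lower, for 10 genes, and 0 higher, where 4.66% of all probes were called and 2.45% lower. In it 7 of 9 K and D probes, 8 of 21 Q, T and M probes and 4 of 7 light chain and loading probes fell. Of the 19, H2-Q10 A_52_P112219 entered the test through healthy aorta alone, the set where it was high, so its call is given no weight. It was 7.54, 7.54 and 7.17 in healthy aorta against 6.03, 6.45 and 6.43 in diabetic aorta, where 2 of 3 arrays were well above background. In muscle it was well above background on no diabetic array and on 2 of 3 healthy arrays, so no bound is drawn from it. Tap1, H2-Q10 A_51_P230267 and A_51_P230269 were also not well above background on any diabetic muscle array. For A_51_P230267 healthy mice were at least 3.46-fold higher, with 3 of 3 healthy arrays well above background. For Tap1 the bound was 2.16-fold, but only 2 of 3 healthy arrays were well above background. H2-K2 A_51_P444565 fell by 1.82 (adjusted p = 0.00358) and Tap1 by 1.26 (adjusted p = 0.00402). H2-T22 A_52_P197826 fell by 1.70, H2-Q8 by 1.64, H2-M2 by 1.24 and both H2-Q2 probes by 1.25. B2m fell by 1.38, 0.95 and 0.92 on its 3 probes, H2-D1 by 1.16 and 1.05, and 3 of 4 H2-K1 probes by 1.09 to 1.36. With slides as a fixed block 5 members were called, H2-T22 A_52_P197826 (-1.99, adjusted p = 0.000724), its other 2 probes, H2-T23 and H2-K2 A_51_P444565, so 2 of the 19 remained.

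In A vs G no class II probe was called. The 7 class II A and E probes differed by -1.17 to -0.57, with 7 at an unadjusted p below 0.05 and a smallest adjusted p of 0.161. Over all members 38 passed an unadjusted p of 0.05, against 21.8% of all probes. In aorta 26 of 54 members were lower on all diabetic than on all healthy arrays (8.18% of all probes), and in muscle 20 were (13.6%). Leaving out diabetic muscle array 1 or 3 left 8 members called.

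In macroangiopathy mice (C vs G), 11 of 54 members were called lower, for 8 genes, and 0 higher, where 5.61% of all probes were called and 2.51% lower. H2-T22 A_52_P197826 was 6.62, 6.53 and 6.52 in macroangiopathy aorta and 7.00, 7.18 and 7.04 in macroangiopathy muscle, below all healthy arrays. It fell by 1.84 (SE 0.30, adjusted p = 0.00555). H2-Q10 fell by 2.10 on A_51_P230267 and by 2.06 on A_51_P230269, Tap1 by 1.09 (adjusted p = 0.028), H2-D1 A_52_P313279 by 1.04, B2m A_51_P129012 by 1.22, H2-K2 by 1.33 and 1.22, H2-M2 by 1.0 and H2-Q2 by 1.16 and 1.0. In macroangiopathy muscle Tap1 and A_51_P230267 were not well above background on any array, where healthy mice were at least 1.98-fold and 3.33-fold higher. For Tap1 only 2 of 3 healthy muscle arrays were well above background. With slides as a fixed block only H2-T22 A_52_P197826 was called (-1.5, adjusted p = 0.0367), and H2-Q10 A_51_P230267 (adjusted p = 0.0774), Tap1 (0.166) and the other members lost their call. Class II A and E probes differed by -1.51 to -0.40 (smallest adjusted p 0.149). Over all members 25 passed an unadjusted p of 0.05, against 25.5% of all probes. On macroangiopathy aorta array 3, where Cd79b was 13.50, Cd74 was 15.09 against 12.02 and 11.88 on the other arrays, and H2-D1 A_52_P313279 was 14.52 against 13.59 and 13.47. Leaving out healthy aorta array 1 left 4 members called, leaving out healthy aorta array 3 left 2, and the lowest count over all 12 arrays left out was 1. In aorta 8 members (12.5% of all probes) and in muscle 19 members (12.2%) were lower on all macroangiopathy than on all healthy arrays.

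The 2 tissues differed in the KK/Ay difference for 5 of 55 members (9.09%), tested with an interaction term, where 9.02% of all probes did, so the share of members was that of all probes. All 5 had the lower value in aorta, which 5.55% of all probes did. Of these, 3 read H2-T22. A_51_P432544 lay between 10.60 and 12.22 in healthy aorta, with array 1 the highest, and between 8.77 and 10.26 in KK/Ay aorta, without overlap. In muscle it was 10.10, 9.31 and 9.83 in healthy mice and 9.60 to 10.11 in KK/Ay mice, so the groups overlapped. Its log2 difference was -1.83 in aorta and 0.18 in muscle, and these differed by -2.01 (SE 0.33, adjusted p = 0.000226).

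A_51_P432538 was 13.32, 11.90 and 11.94 in healthy aorta and 10.06 to 11.99 in KK/Ay aorta, and its difference was -1.58 in aorta and -0.16 in muscle. A_52_P197826, which was lower in both tissues, had -2.14 and -1.07. H2-T24 A_52_P581082 was 9.48, 6.41 and 7.25 in healthy aorta, with its differences at -1.55 and -0.29, and healthy aorta array 1 stood furthest above the KK/Ay range of 5.88 to 6.85. H2-Ke6 had -0.50 in aorta and 0.36 in muscle. Without healthy aorta array 1, 2 members kept a called tissue difference, H2-T22 A_51_P432544 (-1.49, adjusted p = 0.00118) and H2-Ke6 (-1.23, adjusted p = 0.00195).

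**Figure D5:**
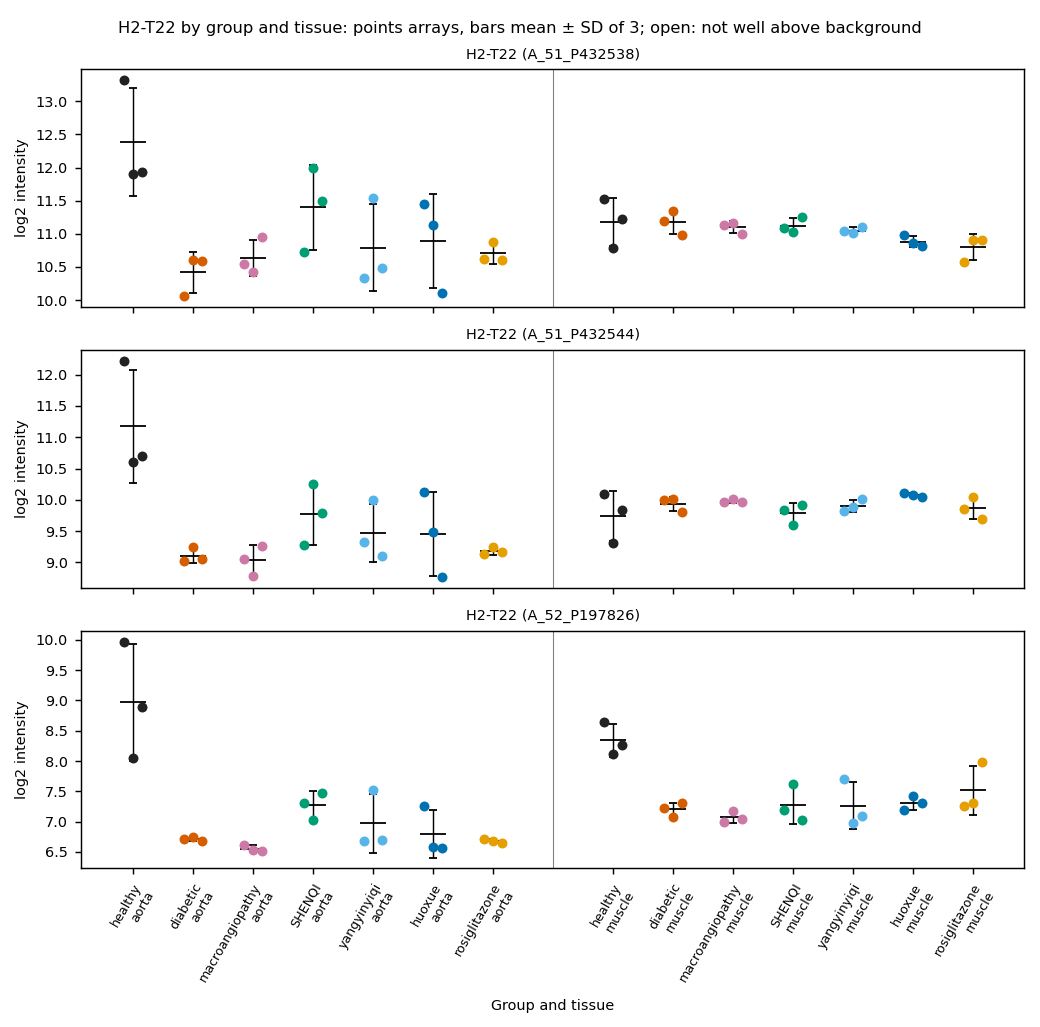
Log2 intensity of the 3 H2-T22 probes by group and tissue (x axis), with points for arrays and bars for mean ± SD of 3. In aorta A_51_P432544 is at 10.60 to 12.22 in healthy mice and at most 10.26 in KK/Ay mice, while in muscle the groups overlap; A_52_P197826 is lower in KK/Ay mice in both tissues.

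Aorta had more of most members than skeletal muscle. Over all 42 arrays 47 of 55 members were called higher in aorta and 2 lower, where 75.3% of all probes were called, 39.2% higher and 36.1% lower. The median log2 difference was 1.5 for members and 0.03 for all probes. H2-D1 was higher by 1.78 and 1.70, B2m A_51_P129012 by 1.57, Tapbp A_51_P304500 by 1.58 (adjusted p = 5.63e-23), H2-Q10 A_51_P230269 by 3.1, Cd74 by 1.58, Ciita by 1.91, H2-Ab1 A_52_P683598 by 1.89 and the H2-Oa probes by 2.35 and 2.21. H2-Ke2 fell by 0.68 and H2-T22 A_52_P197826 by 0.29 in aorta. The 7 B cell probes tested had a median of 1.49 in the same comparison, with 6 called higher. Only slide 4 holds arrays of both tissues, and with slides as a fixed block 1 member was called (11.7% of all probes), so tissue and slide are close to confounded.

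Neither the induction of macroangiopathy nor any treatment gave a called member. In C vs A, 0 of 55 members and 0% of all probes were called by limma, and 2 members had an unadjusted p below 0.05 (5.03% of all probes), B2m A_51_P129006 at 0.64 and H2-M9 at -0.35 (adjusted p = 0.955). K and D probes differed by 0.08 to 0.49, light chain and loading probes by -0.12 to 0.64, class II A and E probes by -0.34 to 0.17, and Cd74 and Ciita by -0.15 and 0.08. With SHENQI compound (B vs C), 0 of 54 members and 0% of all probes were called, and 1 member had an unadjusted p below 0.05 (3.14% of all probes). That was H2-T22 A_52_P197826, which was 7.30, 7.02 and 7.48 in SHENQI aorta against 6.62, 6.53 and 6.52 in macroangiopathy aorta, with no overlap. On muscle arrays it was 7.19, 7.62 and 7.02 against 7.00, 7.18 and 7.04, with overlap, and the difference was 0.45 (adjusted p = 0.999). In B vs C the K and D probes differed by -0.02 to 0.20, light chain and loading probes by -0.35 to 0.20, and class II A and E probes by -0.12 to 0.36.

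With yangyinyiqi (D vs C), 0 of 55 members and 0% of all probes were called, and 0 members passed an unadjusted p of 0.05 (3.61% of all probes). K and D probes differed by -0.22 to 0.08, and Cd74 and Ciita by 0.00 and 0.02. With huoxue (E vs C), 0 of 54 members and 0% of all probes were called, and 3 passed an unadjusted p of 0.05 (17.5% of all probes), which were Tap2 at -0.76 (adjusted p = 0.17), H2-T23 at -1.46 (adjusted p = 0.18) and H2-Ke2 at -0.38. Class II A and E probes differed by -0.14 to 0.48. With rosiglitazone (F vs C), 0 of 55 members and 0.00704% of all probes were called, and 10 members passed an unadjusted p of 0.05 (14.3% of all probes), 9 lower and 1 higher. H2-Ke2 had -0.57 (adjusted p = 0.137), Tap2 -0.58, H2-T23 -1.07 and H2-Q10 A_52_P428354 -0.74. K and D probes differed by -0.47 to -0.09 and class II A and E probes by -0.05 to 0.41. These treatment comparisons share the macroangiopathy arrays.

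In skeletal muscle alone, calls appeared in the huoxue and rosiglitazone groups. H2-T23 was 10.54, 10.77 and 10.18 in macroangiopathy muscle, 7.53, 7.76 and 7.63 in huoxue muscle and 8.11, 8.08 and 9.73 in rosiglitazone muscle. Both treated groups lay below the macroangiopathy arrays without overlap. In muscle alone it fell by 2.86 (SE 0.15, adjusted p = 4.66e-05) in E vs C and by 1.85 (adjusted p = 0.0287) in F vs C. In aorta it was 11.91, 12.77 and 11.14 in huoxue and 11.78, 11.60 and 12.60 in macroangiopathy mice, which overlapped.

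In muscle alone, E vs C gave 17 called members of 45 tested, or 37.8%, where 41.4% of all probes were called, so the share of members called was below that of all probes. Of these, 14 were lower and 3 higher. The lower ones included H2-Bl by 1.42, H2-Q10 A_52_P428354 by 1.25, B2m A_51_P129006 by 1.16, H2-Q4 by 1.14, H2-K2 A_51_P444565 by 1.04, H2-K1 A_52_P50496 by 0.66 and H2-D1 A_51_P496996 by 0.32. Other probes of these genes were not called, with -0.09 and -0.15 for B2m, 0.15 for H2-K2 A_51_P502456, 0.23, -0.14 and -0.31 for H2-K1 and 0.07 for H2-D1 A_52_P313279. The higher ones were H2-Aa A_52_P343306 by 0.46, H2-Ke6 by 0.41 and H2-Q2 A_51_P425048 by 0.37. Tap2 was not well above background on the 3 huoxue muscle arrays and was at least 1.68-fold higher in macroangiopathy muscle. F vs C gave 9 called members of 45 in muscle, all lower, where 16.8% of all probes were called, among them H2-Bl by 1.27, H2-Q10 A_52_P428354 by 1.21, H2-Ke2 by 0.91 and H2-Q4 by 0.90. All huoxue muscle arrays were on slide 11, the rosiglitazone muscle arrays on slides 11 and 3 and the macroangiopathy ones on slides 7 and 8, so slide and group cannot be told apart in muscle. With slides as a fixed block over all arrays, 0 members were called in either comparison, and H2-T23 had -0.49 (adjusted p = 1) and -0.18 (adjusted p = 0.957). Probes well above background numbered 20200 to 21549 on the huoxue muscle arrays.

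Other genes of the pathway were read from a list of 30 genes and 50 probes. Of 47 probes tested for 29 genes in KK/Ay against healthy mice, 16 were called lower and 1 higher, with a median log2 difference of -0.23. Over all probes 27.0% were called and 11.9% called lower, with a median of 0.03. Without healthy aorta array 1, 9 of the pathway probes were called. Nlrc5, which switches class I genes on, fell by 0.73 (adjusted p = 0.0056), and Psmb8 and Psmb9, subunits of the immunoproteasome, fell by 1.01 and 1.32 and by 0.91. Pdia3 of the loading complex fell by 1.04, Tapbpl by 0.61 and the peptide trimmer Erap1 by 0.63 on A_52_P389595. The 1 probe called higher was Fcgrt, a class I-like receptor for IgG, at 0.47 (adjusted p = 0.0205). Psmb10, the third immunoproteasome subunit, had 0.30 (adjusted p = 0.281), and Ctss, the protease that trims the invariant chain, -0.95 (adjusted p = 0.0789).

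Genes that interferon raises also fell together, with 13 of 13 tested probes called lower and a median of -1.07. For this and the other lists below, 27.0% of all probes were called and 11.9% called lower. Gbp2 fell by 1.68 (adjusted p = 6e-09), Cxcl10 by 1.94 and Cxcl9 by 1.69. Among markers of antigen presenting cells, 7 of 14 macrophage probes were called lower, such as C1qb by 1.41 and Adgre1 by 1.05, while Cd68 had -0.09 (adjusted p = 0.828). The summed macrophage level was 15.21 to 16.09 in healthy muscle and 14.03 to 15.10 in KK/Ay muscle, without overlap, and 14.79 to 17.50 and 14.90 to 17.55 in aorta. Of 7 B cell, 9 T cell and 8 dendritic cell probes, 0 were called by limma, and 0, 3 and 2 of them had an unadjusted p below 0.05. Of 10 smooth muscle probes 7 were called higher in KK/Ay mice, with a median of 0.91. For 5 of them the KK/Ay difference was called larger in aorta than in muscle, and the median tissue difference was 1.95. Their summed level in muscle was 15.09 to 16.03 in healthy and 15.36 to 15.93 in KK/Ay mice. In aorta healthy array 1, whose markers go against its label, was the lowest at 14.76. Of 8 adipocyte probes 3 were called lower and 2 higher, and of 10 endothelial probes 2 and 2. The summed adipocyte level was 15.04 to 16.41 in healthy muscle and 12.52 to 16.10, with a median of 13.83, in KK/Ay muscle, and the endothelial level was 12.40 to 13.40 and 12.74 to 13.42. The part of these cell types and of interferon in the class I difference was not tested.

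The members lay among other genes of the same stretch of chromosome 17, from 34063096 to 37618439 of mm9. Of 164 tested probes there that are no members, 25 were called lower and 15 higher in KK/Ay against healthy mice, or 24.4%. Over all probes 27.0% were called. Their median absolute log2 difference was 0.17, against 0.86 for the members and 0.20 for all probes tested. The neighbours thus moved in both directions and by about as much as all probes.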

How the data were processed

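Total RNA of 42 samples was hybridised to 42 one-colour Agilent mouse arrays of 45018 spots, 1639 of them control spots. The spot intensity values were deposited by the authors as scanner output, 8 files with all columns (slides 1 and 3) and 34 with a shorter set. The submitters' processing notes name Agilent Feature Extraction 10.7. The authors' log2 table of 41174 probes, deposited beside them, ranks probes within an array exactly as the processed signal does and has a median of 5.36 on every array, and it served as an alternative. Gene names are those of the array design and may be old.

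As the study's methods name limma's background correction and quantile normalization without further settings, the median signals were background corrected with normexp (offset 0), quantile normalized over all 42 arrays and put on the log2 scale with limma 3.58.1 in R 4.3.3. Control spots were left out. Spots of 1 probe were averaged (5 members have 10 spots each). Probes entered a test if at least 1 of the sets compared had 3 of 3 arrays well above background. Pairs of groups were compared on 12 arrays with group and tissue terms. KK/Ay against healthy, and aorta against muscle, used all 42 arrays with the same terms, and the tissue difference was an interaction among 14 means. Adjusted p-values are from limma's lmFit and eBayes with Benjamini-Hochberg adjustment over all probes tested, and a member was called at 0.05. Differences are in log2, and the procedure was tested on simulated data. Precision is limited by 3 arrays per set.

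The members and gene lists were chosen with earlier results of these data known. Named in each comparison were the probes of H2-K1, H2-D1, H2-Aa, H2-Ab1, H2-Eb1, H2-Ea, B2m, Cd74, Ciita, Tap1, Tap2 and Tapbp, up to 30 other called members by smallest p, members with a called tissue difference, and members that were dim or whose probes disagreed. The single values given for members outside this rule in the treatment comparisons were chosen after they were seen.

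Alternatives were a normexp offset of 50, the processed signal minus its 75th percentile, quantile normalization within each tissue, the authors' log2 table, no filter on dim probes, the slide as a fixed or a random block (correlation 0.205), the replicate number as a block, each tissue alone, and each array left out. After the data were seen, a batch term for slides 1, 3 and 11, a 42-array fit of 14 means, differences within slides, and the omission of the 6 aorta arrays with Cd79b above 12 were added. The accessions of 58 of the 72 members matched RefSeq. Probe sequences and mm9 coordinates came from the scanner files and promoters from RefSeq (GRCm38.p6). No protein sequence was used.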

Additional observations from a re-analysis of the deposited data

Results flagged for a closer look

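In 5 of 55 members tested (9.09%, against 9.02% of all probes) the KK/Ay difference was not the same in aorta and muscle, by limma's interaction term. The aorta difference minus the muscle difference, on the log2 scale, was -2.01 for H2-T22 A_51_P432544 (adjusted p = 0.000226), -1.43 for H2-T22 A_51_P432538 (adjusted p = 0.0105) and -1.07 for H2-T22 A_52_P197826 (adjusted p = 0.0303). It was -0.85 for H2-Ke6 (adjusted p = 0.0413) and -1.26 for H2-T24 A_52_P581082 (adjusted p = 0.0455). With the slide as a random block, A_51_P432544 (-2.03, adjusted p = 0.0012) and A_51_P432538 (-1.53, adjusted p = 0.0167) were called and the other 3 were not, with adjusted p-values of 0.0616 to 0.11. Without the 6 aorta arrays high in Cd79b, both of these and H2-Ke6 were called, at -1.59, -1.11 and -1.11, while A_52_P197826 had -0.58 (adjusted p = 0.166) and H2-T24 -0.37 (adjusted p = 0.384). Without healthy aorta array 1, H2-T24 had -0.38 (adjusted p = 0.346) and lost its call. A_51_P432538 (-0.96, adjusted p = 0.0674) and A_52_P197826 (-0.57, adjusted p = 0.2) lost theirs as well. The H2-T22 probe A_51_P432544 was called in each of these settings.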

How the results depend on the processing

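KK/Ay against healthy mice gave 28 called members and 26 to 33 with any 1 array left out, and kept within 1.5 times that count in all other settings but aorta alone, which gave 9. The diabetic count of 19 became 5 with the slide as a fixed block, 29 with a batch term for slides 1, 3 and 11, 0 in aorta alone and 3 in muscle alone, and 8 to 23 with 1 array left out (lowest without diabetic muscle array 1 or 3). The macroangiopathy count of 11 became 5 with an offset of 50, 7 with quantile normalization within tissues, 7 without the dim filter, 19 in the 42-array fit of 14 means, 1 with the fixed slide block, 23 with the batch term, 0 in aorta alone and 3 in muscle alone, and 1 to 16 with 1 array left out (lowest without healthy muscle array 1). Huoxue and rosiglitazone gave 17 and 9 in muscle alone and 0 in every other setting run. C vs A, B vs C and D vs C gave 0 in every setting run.

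Of the pathway probes, 17 were called, 6 with the fixed slide block, 6 in aorta alone, and 9 (without healthy aorta array 1) to 20 with 1 array left out. Of the 164 neighbours on chromosome 17, 40 were called, 11 with the fixed slide block, 20 in aorta alone and 23 to 47 with 1 array left out. The 49 calls between tissues became 1 with the fixed slide block and 48 to 52 with 1 array left out, and the 5 tissue differences became 3 without the dim filter, 2 with the random slide block, 3 without the arrays high in Cd79b and 2 to 6 with 1 array left out. The fixed slide block and the batch term were not run for the tissue difference. A called value changed sign in 4 cases, H2-T22 A_51_P432544 in KK/Ay muscle alone (0.18), and H2-Q7 A_51_P262079 (-0.07), H2-D4 A_51_P417612 (-0.07) and H2-T22 A_52_P197826 (0.45) between tissues with the fixed slide block. The cause of these shifts was not tested.

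The deviations of same-numbered arrays in 2 groups correlated at -0.51 to 0.55, over 0.1 in 10 of 42 pairs. Those of aorta and muscle were over 0.1 in 2 of 21. Whether replicate numbers pair the samples cannot be read from this, since samples of 1 mouse need not share such deviations. With the replicate number as a block, 15 members were called for diabetic and 5 for macroangiopathy against healthy mice, 29 for all KK/Ay against healthy mice and 5 for the tissue difference.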
